A study of Mus musculus with 6 samples.

Results

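Planar cell polarity (PCP) genes of the neural tube were followed here in neural progenitor cells (NPCs) that lacked *Armc5*. The 10 genes were *Vangl1*, *Vangl2*, *Celsr1*, *Celsr2*, *Celsr3*, *Fzd3*, *Fzd6*, *Prickle1*, *Prickle2* and *Scrib*, taken as every locus of the count table that carried one of these names, and they made up 10 of 53060 genes or merged loci. RNA-seq compared 3 KO libraries, with the genotype *Armc5*(-/-), and 3 WT libraries. The KO was constitutive, so that every cell of the donor fetus lacked *Armc5*, and the strain was labelled as 129 sv X CD1 in both genotypes while the methods of the study give a cross of CD1 with C57BL/6. Both genotypes were grown alike: cells of the ganglionic eminences of E13.5 fetuses formed neurospheres in medium with 20 ng/ml of epidermal growth factor, and passage 2 was sequenced. The ganglionic eminences belong to the forebrain and are taken after the neural tube has closed, so the libraries describe cultured progenitors and not the closing neural tube itself. The study calls the libraries pairs of biological replicates, and nothing says which animals they came from, so that the p values measure the spread between these libraries.

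PCP is the alignment of cells within the plane of a tissue. Its core proteins sit on opposite sides of a cell border: Frizzled receptors with Dishevelled on one side, Vangl proteins with Prickle on the other, and Celsr cadherins on both, where they hold neighbouring cells together. In vertebrates this system drives convergent extension, the narrowing and lengthening of the neural plate, and mice that lack *Vangl2*, *Celsr1*, *Scrib*, or *Fzd3* and *Fzd6* together fail to close the neural tube. In the later brain *Celsr3* and *Fzd3* guide axons and *Celsr2* acts in ependymal cilia.

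The libraries held 52995791 (KO NPC 3) to 85170379 (KO NPC 1) counts at loci that name a gene. KO NPC 3 stood apart from the other 5 libraries: 666 of 19073 tested genes lay over 4-fold above all other libraries in it, against 0 to 27 genes in each of the others. *Armc5* itself had 84, 119 and 43 counts in KO NPC 1, 2 and 3, against 1966, 2114 and 1797 counts in WT NPC 1, 2 and 3, a log2 fold change of -4.68 (SE 0.36) with an adjusted p of 0.0864 in edgeR's quasi-likelihood test and 1.01e-20 in its likelihood ratio test. The progenitor marker *Nes* was at 393, 483 and 75.8 CPM (counts scaled to library size) in KO NPC 1 to 3, against 426, 356 and 426 CPM in WT NPC 1 to 3. KO NPC 3 was also the highest library for the glial markers *Mbp* (518 CPM, against 8.41 to 84.4 CPM in the others) and *Gfap* (276 CPM, against 0.157 to 47.9 CPM), so the fold changes of the 10 genes are given with and without it. Of the marker lists, KO NPC 3 was highest for 7 of 15 neuron, 5 of 8 astrocyte and 6 of 10 oligodendrocyte lineage genes tested. It was lowest for 0 of the neuron and astrocyte genes and for 3 of 10 oligodendrocyte lineage genes. Of the progenitor genes, it was lowest for 6 of 15 and highest for 4 of 15.

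For the 4 genes printed here, the promoter windows are shown because *Prickle1*, *Prickle2* and *Celsr3* were highest and *Celsr2* was lowest in KO NPC 3, a choice made after their values were seen. *Vangl2* was also highest in that library, and its window, with a GC content of 73.6% and 2 GC boxes, is not printed. A link between the letters of the windows and the levels of the genes was not tested. Each window is the 250 bases before the RefSeq start (mouse, GRCm38.p6), all written 5′ to 3′ in the direction of the gene, with the GC box GGGCGG or its reverse CCGCCC in capitals. The windows are *Prickle1* at chr15:93595903-93596152 (minus strand), *Prickle2* at chr6:92706185-92706434 (minus strand), *Celsr3* at chr9:108825795-108826044 (plus strand) and *Celsr2* at chr3:108415580-108415829 (minus strand).
Prickle1: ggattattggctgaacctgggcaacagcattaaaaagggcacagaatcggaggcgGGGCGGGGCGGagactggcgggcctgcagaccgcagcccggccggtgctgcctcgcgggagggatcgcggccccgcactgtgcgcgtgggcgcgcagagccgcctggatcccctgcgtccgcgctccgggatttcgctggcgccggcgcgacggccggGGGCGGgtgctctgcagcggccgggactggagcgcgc
Prickle2: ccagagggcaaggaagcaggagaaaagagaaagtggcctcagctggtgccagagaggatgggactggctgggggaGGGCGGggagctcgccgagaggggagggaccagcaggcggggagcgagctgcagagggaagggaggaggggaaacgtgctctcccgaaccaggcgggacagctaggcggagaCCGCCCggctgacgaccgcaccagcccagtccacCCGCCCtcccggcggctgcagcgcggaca
Celsr3: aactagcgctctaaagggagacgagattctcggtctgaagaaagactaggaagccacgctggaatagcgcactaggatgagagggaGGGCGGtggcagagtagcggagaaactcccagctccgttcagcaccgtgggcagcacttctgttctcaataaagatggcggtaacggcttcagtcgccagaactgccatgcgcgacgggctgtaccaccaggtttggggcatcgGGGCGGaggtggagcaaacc
Celsr2: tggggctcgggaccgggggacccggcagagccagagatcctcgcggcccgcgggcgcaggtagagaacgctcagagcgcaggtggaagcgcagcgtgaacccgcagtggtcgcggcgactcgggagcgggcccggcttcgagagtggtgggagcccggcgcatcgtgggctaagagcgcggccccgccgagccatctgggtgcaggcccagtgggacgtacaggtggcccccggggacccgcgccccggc
The *Prickle1* window holds 3 GC boxes, 2 of them overlapping, the *Prickle2* window 3 and the *Celsr3* window 2, while the letters are not in the *Celsr2* window. GC content was 74.0% in the *Prickle1*, 70.0% in the *Prickle2*, 58.0% in the *Celsr3* and 75.2% in the *Celsr2* window printed, where the median of all windows was 52.4%. The windows printed for the prickle genes are those of the start furthest upstream. The 3 other *Prickle2* windows had a GC content of 46.4% to 50.8%, below that median, with 0 to 2 GC boxes, and the other *Prickle1* window had 60.8% with 2 GC boxes. RefSeq windows matched 5 of the 10 genes (*Vangl2*, *Celsr2*, *Celsr3*, *Prickle1* and *Prickle2*), with 9 windows in all because the prickle genes have several starts. A GC box was found on either strand in 7 of these 9 windows, and in 32.7% of all 32851 windows of the same length. The E box CAGCTG was found in 2 of 9 windows (13.0% of all), CCAAT in 2 of 9 (33.8% of all) and TATAAA in 0 of 9 (12.4% of all), each searched on both strands and sharing no letter with a GC box in the 9 windows.

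None of the 10 genes passed the test between KO and WT. All 10 were tested with edgeR's quasi-likelihood test, with p values adjusted by Benjamini-Hochberg over all 19073 genes, and 0 were called at an adjusted p under 0.05, where 0% of all genes were called. At an unadjusted p under 0.05, 0 of the 10 genes passed in the same test, against 1.61% of all genes. The likelihood ratio test of edgeR called 0 of the 10 (0.0891% of all genes) and DESeq2 called 0 of the 9 for which it gave a p value (0.186% of 18840 genes with an adjusted p). DESeq2 gave none for *Celsr1*, the gene with the largest fold change of the 10. For each of the 10 genes, the KO and WT ranges overlapped, whereas 6.02% of tested genes had ranges that did not. The fitted log2 fold changes of the 10 genes, 6 of them above 0, had a median of 0.15, against -0.01 over all genes tested. Scaled by the counts of *Rn7sk*, a Pol III transcript that the study used as its internal control, 3 of the 10 were above 0. Their median was -0.15 where that of all genes was -0.26. *Rn7sk* itself ran from 8062 to 16113 CPM within WT. The study scaled by a ratio of *Rn7sk* log2 CPM instead. With that ratio, the replicate number as a block and the likelihood ratio test, 6 of the 10 were above 0. Their median was then 0.17, against 0.0014 over all genes. Without KO NPC 3, under the first scaling, 2 of the 10 were above 0 and the median was -0.10 against -0.01 over all genes. In bulk libraries, fewer cells of a type and less RNA per cell cannot be told apart.

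**Figure D1:**
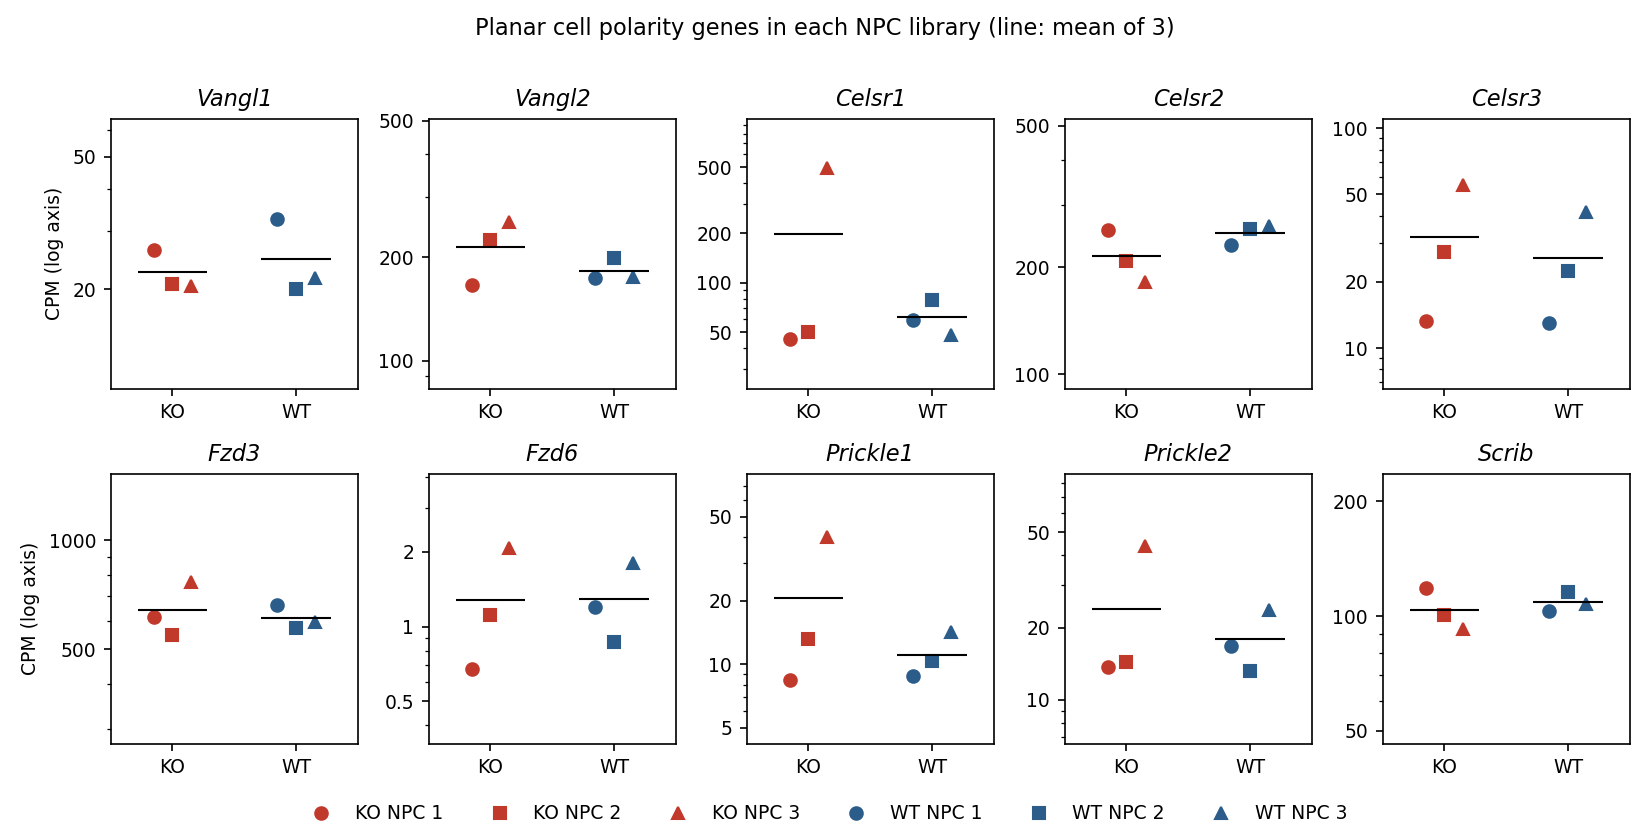
CPM of each PCP gene (log axis, own scale per panel) in KO NPC 1 to 3 and WT NPC 1 to 3, with a line at the mean of 3 libraries. In every panel the KO and WT points overlap in range, and KO NPC 3 (red triangle) is the highest point for 7 genes, the furthest for *Celsr1* at 494 CPM.

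The Vangl proteins are multipass membrane proteins that recruit Prickle to one side of the cell. *Vangl2* (chr1:172000960-172028444, minus strand, GRCm38 as in the files) had 166, 224 and 254 CPM in KO NPC 1, 2 and 3, against 174, 199 and 175 CPM in WT NPC 1, 2 and 3. KO NPC 1 was below and KO NPC 2 and 3 were above all WT libraries. The means were 214 ± 44.8 CPM in KO and 183 ± 14.3 CPM in WT (SD, n = 3 each), a log2 fold change of 0.23 (SE 0.20), which fell short of the test (edgeR quasi-likelihood, adjusted p = 0.983) and came to 0.09 without KO NPC 3. *Vangl1*, its paralog, at chr3:102153583-102204693 on the minus strand, had 26.2, 20.7 and 20.5 CPM in KO and 32.5, 20.1 and 21.6 CPM in WT. The libraries numbered 1 were the highest of both genotypes, and the other 4 lay close together. Its log2 fold change was -0.14 (SE 0.24), and -0.08 without KO NPC 3.

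The Celsr genes encode seven-pass cadherins, the vertebrate counterparts of Flamingo in Drosophila. *Celsr1* (chr15:85896507-86034240, minus strand), the family member whose mutation causes an open neural tube in mice, had 45.6, 50.5 and 494 CPM in KO NPC 1, 2 and 3, against 59.3, 78.5 and 48.3 CPM in WT NPC 1, 2 and 3. A single library set this gene apart: KO NPC 3, with 29115 counts, was 6.29-fold above the highest of the others, while KO NPC 1 and 2 lay in the lower part of the WT range or below it. The KO mean of 197 ± 257 CPM, against 62.0 ± 15.3 CPM in WT, therefore had an SD above its own size (n = 3 each). The log2 fold change was 1.66 (SE 0.96, 95% interval -0.66 to 3.99), with an adjusted p of 0.983 in edgeR's quasi-likelihood test. It turned to -0.37 without KO NPC 3 and to -0.53 without both libraries numbered 3, where the unadjusted p was under 0.05 and edgeR's adjusted p 0.9995. With the replicate number as a block it was 0.62 (edgeR quasi-likelihood, adjusted p = 0.968). *Celsr1* had the widest spread of the 10 genes: its range over the 6 libraries was 3.44 on the log2 CPM scale, and 90.4% of tested genes had a smaller one. In KO NPC 3 it ranked number 351 of 19073 genes by the excess over the median of the other 5 libraries, which was 3.29 on the log2 scale. The *Celsr1* locus as assembled shares 888 bases with *Trmu* on the opposite strand. *Trmu* had 556, 494 and 531 counts in KO and 429, 552 and 491 counts in WT. The part of shared reads in the *Celsr1* values was not tested.

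*Celsr2* (chr3:108390851-108415552, minus strand) was, per kilobase, the most abundant of the 3 Celsr genes in 5 of 6 libraries. It had 255, 208 and 182 CPM in KO and 232, 257 and 262 CPM in WT. KO NPC 2 and 3 lay below all WT libraries and KO NPC 1 lay among them. Its means were 215 ± 37.2 CPM in KO and 250.3 ± 16.4 CPM in WT (SD, n = 3 each), with a log2 fold change of -0.22 (SE 0.18) that was -0.11 without KO NPC 3. *Celsr3* (chr9:108826320-108852969, plus strand), at a locus it shares with the microRNA gene *Gm23156*, had 13.3, 27.2 and 55.2 CPM in KO NPC 1, 2 and 3, against 13.1, 22.4 and 41.4 CPM in WT NPC 1, 2 and 3. Here the number of the library moved the value more than the genotype did, with the order 1, 2, 3 in both genotypes. *Celsr3* was the only one of the 10 genes with the same direction in all 3 numbers, higher in KO by 0.03, 0.28 and 0.41 on the log2 scale, where 22.6% of tested genes had one direction throughout. Its log2 fold change was 0.32 (SE 0.61), -0.34 without KO NPC 3, which leaves WT NPC 3 with no partner, and 0.18 without both libraries numbered 3. With the replicate number as a block it was 0.24 (SE 0.18, against 0.61 without the block) and was not called either (edgeR quasi-likelihood, adjusted p = 0.968). Nor were the other 9 genes called. In that fit 2.05% of all genes had an unadjusted p under 0.05, and 0.199% of all genes were called by the likelihood ratio test with the block. The neuronal marker *Tubb3* had the same order as *Celsr3*, with 9.17, 27.1 and 62.1 CPM in KO and 7.81, 24.9 and 53.7 CPM in WT, and the part of neuronal content in the *Celsr3* values was not tested.

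**Figure D2:**
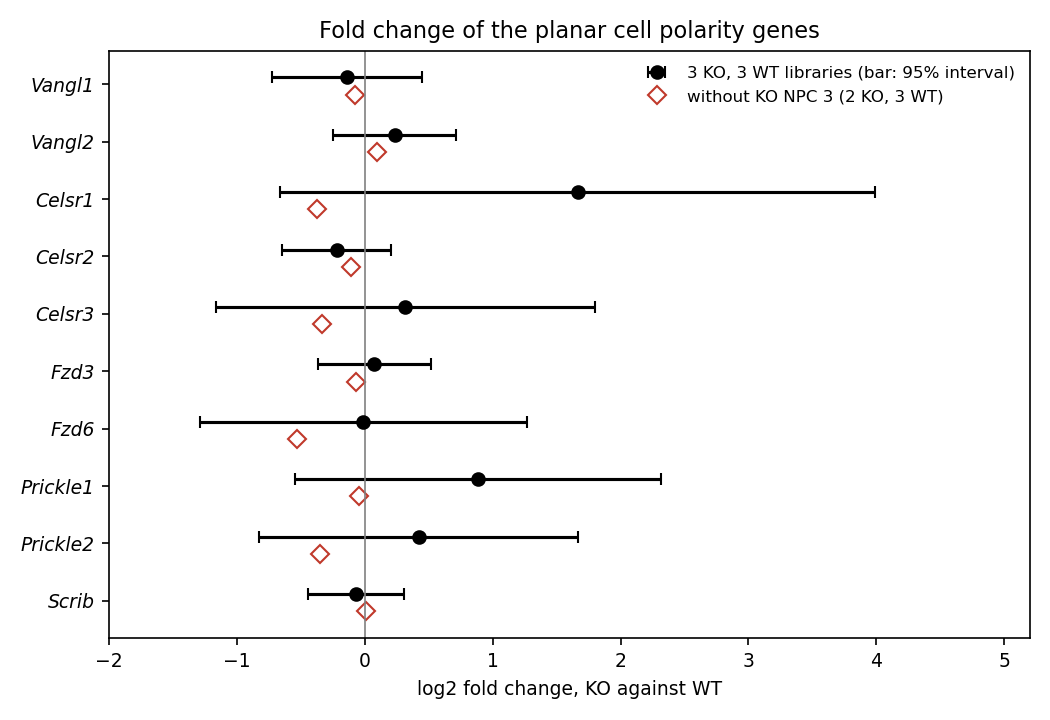
Log2 fold change of each PCP gene, KO against WT, from edgeR (black points, 95% interval) and the same without KO NPC 3 (red diamonds, no interval drawn). Every black bar crosses 0, and the diamond lies across 0 from the point for 6 genes, the furthest for *Celsr1* (1.66 with and -0.37 without KO NPC 3).

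Frizzled receptors bind Wnt ligands and recruit Dishevelled, and *Fzd3* and *Fzd6* are a pair that acts in PCP of the neural tube. *Fzd3* (chr14:65192449-65262463, minus strand) had 613, 548 and 765 CPM in KO NPC 1, 2 and 3, against 662, 573 and 593 CPM in WT NPC 1, 2 and 3. KO NPC 3 was the highest and KO NPC 2 the lowest library, so the KO libraries enclosed all 3 WT libraries. The log2 fold change was 0.08 (SE 0.18), from means of 642 ± 112 CPM in KO and 609 ± 46.9 CPM in WT (SD, n = 3 each), and was -0.07 without KO NPC 3. *Fzd6* (chr15:39006034-39038188, plus strand) was the scarcest of the 10 genes, with 56, 81 and 122 counts in KO and 76, 62 and 124 counts in WT. In CPM these were 0.675, 1.11 and 2.07 in KO and 1.20, 0.866 and 1.81 in WT, with the libraries numbered 3 highest in both genotypes. The log2 fold change of -0.01 (SE 0.53, 95% interval -1.29 to 1.27) leaves room for a more than 2-fold difference in either direction and was -0.53 without KO NPC 3.

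Prickle proteins bind Vangl inside the cell and keep Dishevelled off that side. *Prickle1* (chr15:93499114-93595891, minus strand) had 8.40, 13.1 and 40.0 CPM in KO NPC 1, 2 and 3, against 8.76, 10.3 and 14.2 CPM in WT NPC 1, 2 and 3. KO NPC 3 was 2.81-fold above the highest other library, and the order of the numbers was the same in both genotypes, as it was for *Celsr3*, 2 of the 10 genes in all, against 21.3% of tested genes. The means of 20.5 ± 17.0 CPM in KO and 11.1 ± 2.82 CPM in WT (SD, n = 3 each) gave a log2 fold change of 0.88 (SE 0.59, edgeR quasi-likelihood, adjusted p = 0.983), which was -0.04 without KO NPC 3, 0.17 without both libraries numbered 3 and 0.59 with the replicate block. *Prickle2* (chr6:92370908-92706316, minus strand) followed a like course, with 13.7, 14.4 and 43.8 CPM in KO and 16.8, 13.2 and 23.7 CPM in WT. Both libraries numbered 3 were the highest of their genotype. Its log2 fold change was 0.42 (SE 0.52) and turned to -0.35 without KO NPC 3 and to -0.10 without both libraries numbered 3, while it was 0.24 with the replicate block. Over the 6 libraries the log2 CPM of the prickle genes had a Pearson correlation of 0.92, a description over libraries that share the outlying KO NPC 3.

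*Scrib* encodes a scaffold of the basolateral membrane that binds Vangl2. At chr15:76047158-76069784 on the minus strand, it had 118, 101 and 92.5 CPM in KO NPC 1, 2 and 3, against 103, 116 and 108 CPM in WT NPC 1, 2 and 3. KO held both the highest and the lowest library. Its means were 104 ± 13.2 CPM in KO and 109 ± 6.27 CPM in WT (SD, n = 3 each), with a log2 fold change of -0.07 (SE 0.16, 95% interval -0.45 to 0.31) and 0.01 without KO NPC 3. This was the steadiest of the 10 genes, with a range of 0.36 on the log2 CPM scale, and 7.62% of tested genes had a smaller one.

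The excess in KO NPC 3 was uneven among the 10 genes. That library was the highest for 7 of them (*Vangl2*, *Celsr1*, *Celsr3*, *Fzd3*, *Fzd6*, *Prickle1* and *Prickle2*) and the lowest for *Celsr2* and *Scrib*, where over all tested genes it was the highest for 34.9% and the lowest for 36.7%. Relative to the median of the other 5 libraries, the log2 difference in KO NPC 3 was 3.29 for *Celsr1*, 1.95 for *Prickle1*, 1.60 for *Prickle2*, 1.30 for *Celsr3* and 0.88 for *Fzd6*. It was 0.53 for *Vangl2* and 0.37 for *Fzd3*, within the quartiles of all genes in that library (-0.62 to 0.74). *Celsr1* was the only one of the 10 past the 95th percentile of all genes there, which was 2.35. Summed marker levels moved with KO NPC 3 as well. The astrocyte list summed to 2819 CPM in KO NPC 3, against 926 to 1467 CPM in the other 5 libraries, and the oligodendrocyte lineage list to 4568 CPM, against 2636 to 3851 CPM. The neuron list summed to 1580 CPM in KO NPC 3 and to 1533 CPM in WT NPC 1, with 880 to 1253 CPM in the rest. *Map2* alone made up 907 CPM of the sum in KO NPC 3 and 1428 CPM of that in WT NPC 1. In the rest *Map2* was at 726 to 761 CPM. The progenitor list summed to 4356 CPM in KO NPC 3 and 5096 to 5918 CPM in the others. The fibroblast and meninges list summed to 60.3 CPM in KO NPC 3, of which *Pdgfrb*, also a pericyte gene, made up 58.4 CPM, against 1.82 to 9.04 CPM in the others, and the endothelial list to 15.9 CPM, against 5.8 to 13.1 CPM. For motile cilia the sum was 81.6 CPM in KO NPC 3 and 22.0 to 32.2 CPM in the others. Of the 8 microglia markers, 6 were below the filter, *Aif1* was at 0 in 5 of 6 libraries, and their sum was 4.15 to 4.31 CPM in KO and 4.75 to 4.84 CPM in WT. The part of any of these cell types in the values of the PCP genes was not tested.

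**Figure D3:**
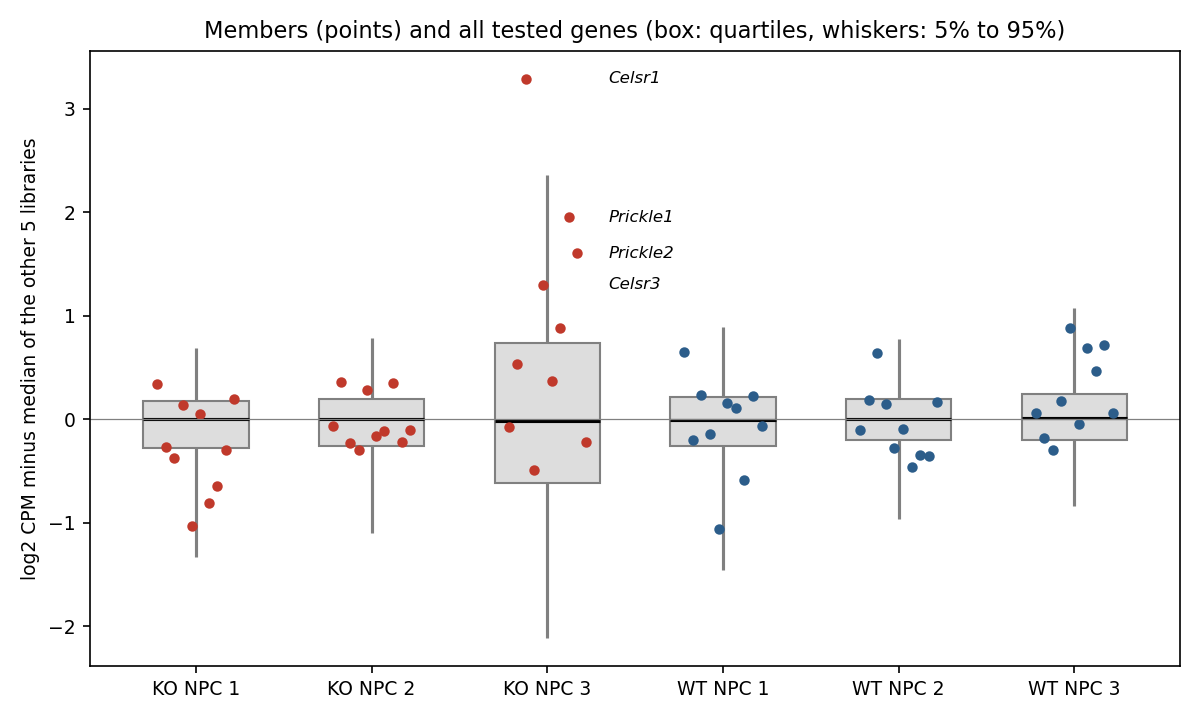
Log2 CPM of each PCP gene minus the median of the other 5 libraries (points), beside the quartiles (box) and the 5% to 95% range (whiskers) of all 19073 tested genes in that library. The box and the whiskers are widest in KO NPC 3, where *Celsr1* (3.29) lies above the whisker (2.35) and *Prickle1*, *Prickle2*, *Celsr3* and *Fzd6* lie between the box and the end of the whisker.

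Per kilobase of locus length, the scale on which genes can be set against each other, *Fzd3* had the highest level, 50.1 ± 8.72 CPM per kb in KO and 47.6 ± 3.66 CPM per kb in WT (SD, n = 3 each). *Vangl2* followed with a mean of 22.8 CPM per kb over the 6 libraries, then *Celsr2* with 19.9, *Scrib* with 15.2 and *Celsr1* with 8.79, whose median of 3.73 CPM per kb was far lower because of KO NPC 3. Below these lay *Prickle1* with 3.64, *Vangl1* with 3.30, *Celsr3* with 2.38, *Prickle2* with 1.68 and *Fzd6* with 0.267 CPM per kb. Only *Fzd3* and *Vangl2*, and *Prickle2* and *Fzd6*, were neighbours in this order whose ranges over the 6 libraries did not overlap. For the other 7 neighbouring pairs the ranges overlapped. Within the libraries, *Celsr2* was above *Scrib* and *Celsr1* above *Prickle1* in 6 of 6, while the order of the remaining 5 pairs held in 3 to 5 of 6 libraries.

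Ratios between paralogs within a library do not depend on how the libraries are scaled. As a log2 ratio of counts, *Prickle2* to *Prickle1* was 0.70, 0.13 and 0.13 in KO NPC 1, 2 and 3, against 0.94, 0.35 and 0.74 in WT NPC 1, 2 and 3. KO was lower within each of the 3 numbers, by 0.35 on average, which did not pass (exact permutation test, two-sided, p = 0.2, adjusted p = 0.9 over 5 ratios). *Vangl2* to *Vangl1* was 2.66, 3.44 and 3.63 in KO and 2.41, 3.31 and 3.02 in WT. Here KO was higher within each number, by 0.33 on average (exact permutation test, p = 0.5, adjusted p = 0.9). *Celsr2* to *Celsr1* was 2.48, 2.04 and -1.44 in KO NPC 1, 2 and 3, against 1.97, 1.71 and 2.44 in WT NPC 1, 2 and 3. *Celsr1* outnumbered *Celsr2* in KO NPC 3 alone, and the difference of -1.01 between the means (exact permutation test, p = 0.9, adjusted p = 0.9) turned to 0.22 without it. *Celsr3* to *Celsr2* differed by 0.47 (KO -2.97 ± 1.27, WT -3.44 ± 0.75) and *Fzd6* to *Fzd3* by -0.16 (KO -9.09 ± 0.66, WT -8.93 ± 0.52), also within the spread (SD, n = 3 each, exact permutation test, p = 0.7 and 0.8, adjusted p = 0.9 for both). With 3 libraries against 3, the smallest p this test allows is 0.1, so it could not reach 0.05 for any ratio.

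**Figure D4:**
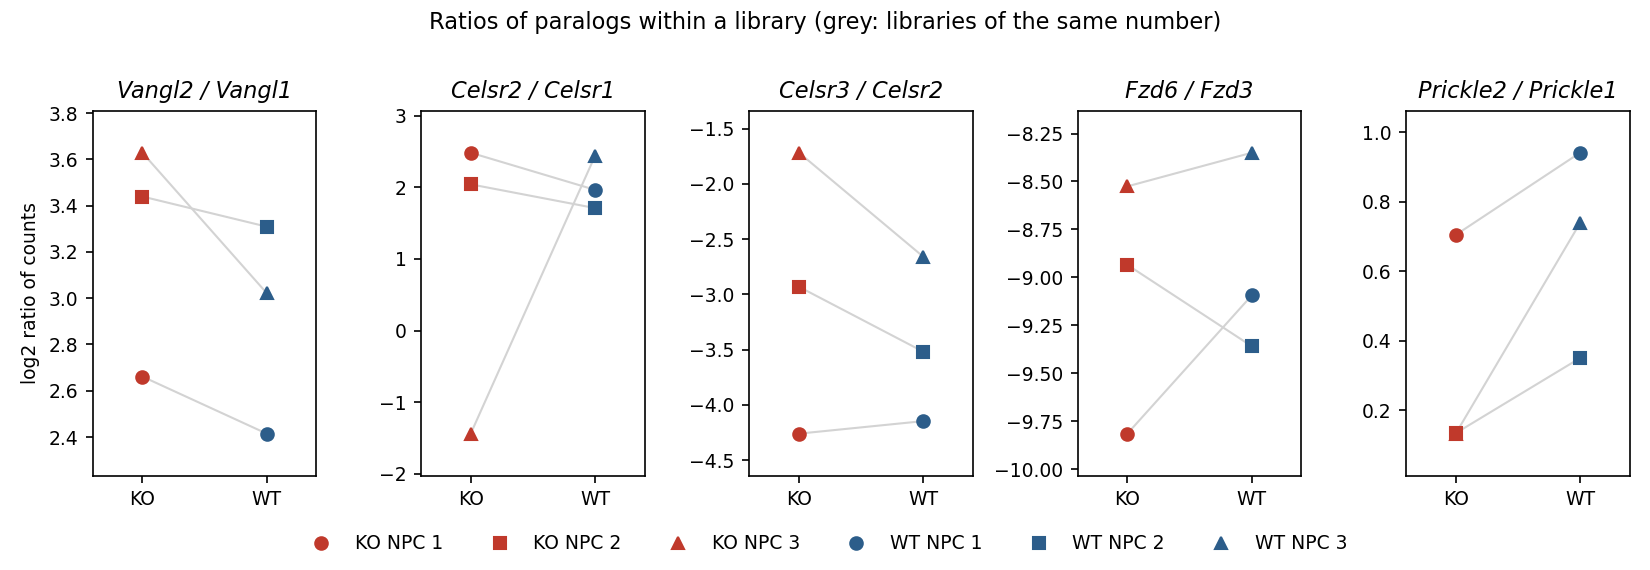
Log2 ratio of the counts of paralogs within each library for 5 pairs of PCP genes, KO left and WT right, with grey lines between libraries of the same number (own scale per panel). All lines of *Prickle2* to *Prickle1* run upward toward WT, where KO NPC 2 and 3 coincide at 0.13, all lines of *Vangl2* to *Vangl1* run downward, and KO NPC 3 alone is below 0 (-1.44) for *Celsr2* to *Celsr1*.

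Loci without a gene name gave a second view of the prickle genes. Within introns of *Prickle1* and *Prickle2*, on the same strand and clear of annotated exons, the assembly of the authors placed 1 and 8 such loci. The locus in *Prickle1* (chr15:93527174-93578064) had 100, 76 and 135 counts in KO NPC 1, 2 and 3, against 38, 31 and 45 counts in WT NPC 1, 2 and 3, or 1.19, 1.03 and 2.17 CPM in KO and 0.595, 0.428 and 0.641 CPM in WT. Every KO library was above every WT library. Ranges that did not overlap, in either direction, were found for 6.49% of the 4774 unnamed loci tested. The log2 fold change was 1.39 (SE 0.44), with an adjusted p of 0.980 in edgeR's quasi-likelihood test over all 23863 loci, of which 0% were called. Its unadjusted p was under 0.05, as was that of 2.6% of unnamed loci. Without KO NPC 3 the log2 fold change was 1.00, where *Prickle1* itself came to -0.04, or to 0.17 without both libraries numbered 3.

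Of the 8 loci within *Prickle2*, 7 were highest in KO NPC 3, 6 of them by 5.59-fold to 28.9-fold over the highest other library, while the scarcest had 43 counts in KO NPC 3 and 1 count in the other 5 libraries together. Over all unnamed loci tested, which are those past the filter on low counts, 56.7% were highest in that library. Of the 8, 4 passed this filter. Those 4.64, 20.8 and 36.4 kb from the gene start were highest in KO NPC 3, and the one at 141 kb was not. The one with the most counts, at chr6:92665063-92669891, had 29, 9 and 631 counts in KO and 20, 25 and 38 counts in WT, so that KO NPC 1 and 2 lay close to or below the WT libraries. The remaining one, at chr6:92564994-92565207, ran the other way with 25, 15 and 10 counts in KO and 21, 28 and 22 counts in WT. In CPM its KO values of 0.297, 0.204 and 0.161 lay below all WT values of 0.329, 0.387 and 0.313, with a log2 fold change of -0.63 (SE 0.43, edgeR quasi-likelihood, adjusted p = 0.980). Loci without a name made up 4.89% of the counts of KO NPC 3 and 1.31% to 1.72% of those of the other libraries.

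**Figure D5:**
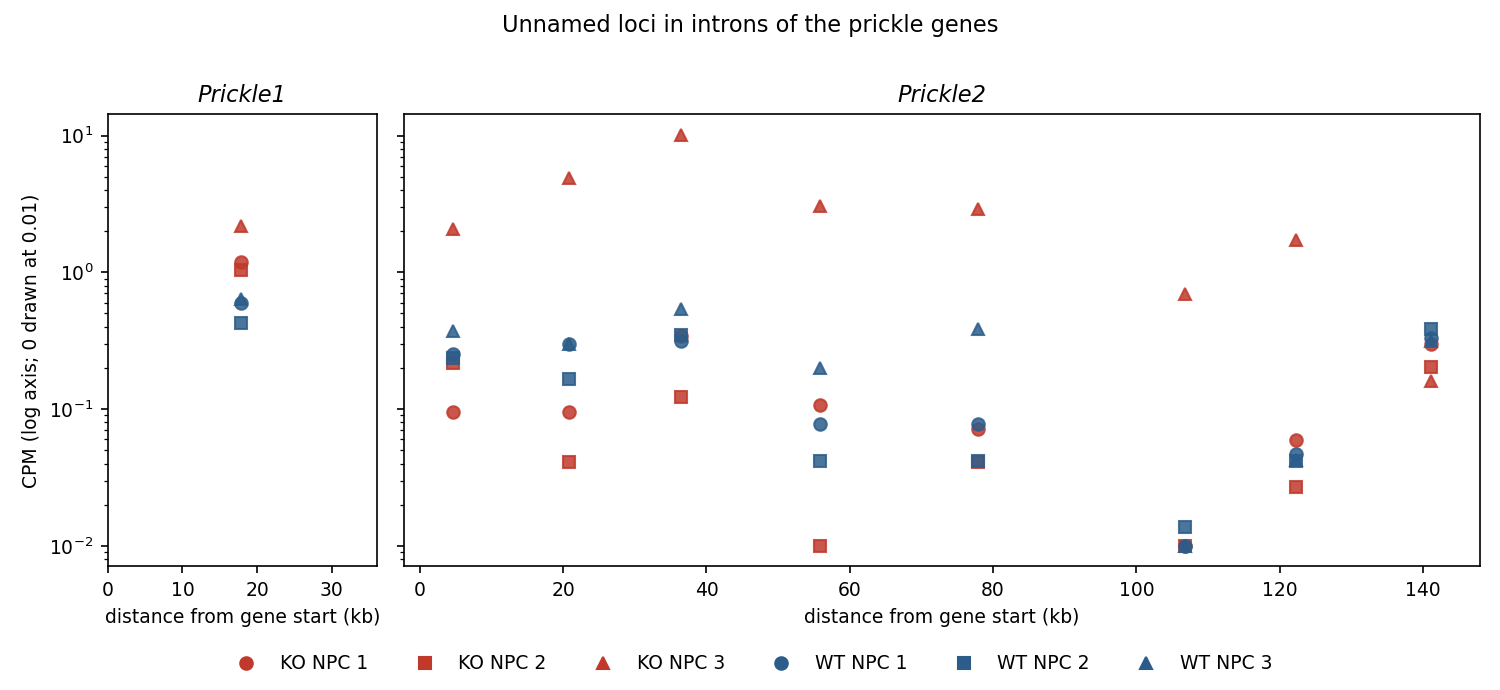
CPM (log axis, 0 drawn at 0.01) of the 9 unnamed loci in introns of *Prickle1* and *Prickle2*, by distance from the gene start in kb, in 3 KO and 3 WT libraries. All 3 KO points lie above the WT points for the *Prickle1* locus, KO NPC 3 stands alone at the top for 7 of the 8 *Prickle2* loci, and all 3 KO points lie below the WT points for the last one.

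The wider PCP pathway gave 0 calls in edgeR's quasi-likelihood test, which called 0% of all genes and did not call *Armc5* itself. Of the ligands and co-receptors, 9 of 10 were tested (*Wnt11* was below the filter). Their log2 fold changes had a median of -0.13 (-0.05 without KO NPC 3) and lay above 0 for 2 genes and below 0 for 7. *Wnt7b*, which drew the most reads of them, averaged 151 ± 55.6 CPM in KO and 183 ± 37.6 CPM in WT (SD, n = 3 each), a log2 difference of -0.28. The other Frizzled receptors were split 4 to 4 with a median of -0.03, and *Fzd2*, with the most reads, averaged 87.8 ± 6.42 CPM in KO and 73.1 ± 20.2 CPM in WT. Of the 11 other cytoplasmic components, which include the Dishevelled proteins, 7 lay below 0 and 4 above, and their median was -0.02. *Dvl3*, with the most reads of these, was at 255 ± 17.5 CPM in KO and 259.6 ± 43.1 CPM in WT. *Prickle3*, a scarce paralog of the prickle genes, was the only pathway gene with an unadjusted p under 0.05, as 1.61% of all genes had. It had 0.193, 0.206 and 0.119 CPM in KO NPC 1, 2 and 3, against 0.333, 0.335 and 0.438 CPM in WT NPC 1, 2 and 3, each KO library below each WT library. Of all tested genes, 6.02% had KO and WT ranges that did not overlap, in either direction. Its log2 fold change was -1.08 (SE 0.44, edgeR quasi-likelihood, adjusted p = 0.983).

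Of the 11 downstream effectors, which carry the signal to the cytoskeleton and the cilium, 9 lay below 0 and 2 above, and their median was -0.07 (-0.04 without KO NPC 3). The small GTPase gene *Rac1*, with the most reads, averaged 601 ± 99.1 CPM in KO and 639 ± 74.5 CPM in WT (SD, n = 3 each). The Fat and Dachsous cadherins, a second polarity system, had a median of 0.03, with 5 above 0 and 2 below, and *Fat1* averaged 761 ± 117 CPM in KO and 766 ± 65.5 CPM in WT. The partners and paralogs of Scribble had a median of 0.02, with 6 above 0 and 4 below. *Llgl1*, which acts with Scribble in apical and basal polarity, averaged 349 ± 76.0 CPM in KO and 426 ± 47.6 CPM in WT, a log2 fold change of -0.29 (SE 0.21). The medians of these 6 lists lay between -0.13 and 0.03, where that of all genes tested was -0.01.

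The genes most like *Celsr1*, the gene with the widest range, were *D130062J10Rik*, *Tom1l2* and *4931415C17Rik*, with Pearson correlations of 0.999, 0.998 and 0.998 of log2 CPM over the 6 libraries. *Tom1l2* had 76.3, 79.3 and 194 CPM in KO NPC 1, 2 and 3, against 84.9, 98.0 and 81.3 CPM in WT NPC 1, 2 and 3, so that it shared the peak in KO NPC 3. Without KO NPC 3 the 3 correlations were 0.981, 0.981 and 0.955 over 5 libraries. These 5 were among the 6 libraries by which the 3 genes were picked from the 19073 tested, so the values are no separate check. *4931415C17Rik* was scarce, at 0.190 to 0.644 CPM.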

How the data were processed

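RNA-seq of 3 *Armc5* KO and 3 WT NPC cultures was analysed from the deposited count table. The authors depleted rRNA, made directional libraries and, per the labels, used STAR, Trimmomatic, StringTie, Picard and edgeR with the GRCm38 build, without stated versions. The deposited whole-number counts per locus are neither scaled nor filtered, and the sources used here do not state how reads were assigned to loci or whether strand was used, so reads of overlapping genes on opposite strands may not be told apart. The authors also deposited log2 CPM and log2 values relative to *Rn7sk*, which were not used. The 53103 loci with a gene name were added up by reference gene ID, and the 6596 loci with no name (1.31% to 4.89% of a library) were left out, apart from those inside PCP genes.

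Genes were filtered with filterByExpr (minimum count 10, minimum total 15), scaled by TMM and tested with edgeR's quasi-likelihood test, KO against WT, without a block, with a threshold of 0.05 on Benjamini-Hochberg adjusted p values. CPM are on TMM-scaled library sizes, with TMM factors from the fit over all loci for unnamed loci, and the log2 CPM used a prior count of 2. Standard errors were derived from the test statistic. Log2 ratios of paralogs used a pseudocount of 0.5 and an exact permutation test. The versions were DESeq2 1.42.0, edgeR 4.0.16 and limma 3.58.1 under R 4.3.3, and the tests were tested on simulated data.

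Replicate numbers were taken to pair the libraries where a block was used, while the main fit and the permutation tests left the pairing out. Deviations from the group means correlated at 0.413, 0.169 and 0.195 between libraries of the same number, and at most at 0.0579 between others. Such deviations sum to 0 within a genotype, so the low values between others are partly built in. The study calls the libraries pairs. The alternatives were scaling by library total or by *Rn7sk*, no filter, a CPM of 1 or more in 3 or more libraries, the likelihood ratio test, DESeq2, the replicate block, leaving out each library and leaving out both libraries numbered 3. Named genes were the 10 PCP genes, the gene of highest mean CPM in each pathway list and those at an unadjusted p under 0.05, *Armc5*, *Rn7sk*, 4 markers and the 3 genes most like the PCP gene of widest range. *Trmu*, *Map2*, *Pdgfrb* and *Aif1* were named after their values were seen. The PCP genes and all lists were chosen with earlier results of these data known. Promoter windows came from RefSeq.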

Additional observations from a re-analysis of the deposited data

Results flagged for a closer look

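Loci without a gene name within introns of the prickle genes, which the comparison of named genes does not use, are listed here by a one-sided rule. The rule kept those whose highest KO library was above the highest WT library. The *Prickle2* locus furthest from the gene start, with all KO libraries below all WT libraries, is not listed for that reason. The *Prickle1* intron locus reached 2.17 CPM in KO, where the highest WT library had 0.641 CPM. The 7 *Prickle2* intron loci nearest to the gene start reached 2.07, 4.88, 10.1, 3.03, 2.91, 0.690 and 1.72 CPM in KO NPC 3, and the highest WT library at each had 0.370, 0.299, 0.541, 0.199, 0.385, 0.0138 and 0.0470 CPM. For the *Prickle1* locus all 3 KO libraries were above the WT libraries, and for the *Prickle2* loci only KO NPC 3 stood out among the KO libraries. Over all unnamed loci tested, 56.7% were highest in KO NPC 3. This share covers loci past the filter on low counts, which the *Prickle2* loci at 3.03, 2.91, 0.690 and 1.72 CPM did not pass.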

How the results depend on the processing

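None of the 10 PCP genes was called in the alternatives run, of which DESeq2 gave no p value for *Celsr1*, and the call of 0 genes over all tested ones depended on the tool, the filter and the scaling. Over all genes, 4 were called with *Rn7sk* scaling, 5 without a filter, 17 by the likelihood ratio test, 35 by DESeq2, 38 by that test once a replicate block was added, and 40 with that block and the *Rn7sk* log2 CPM ratio. Without KO NPC 3, a combination added after seeing the data, 68 genes were called by the likelihood ratio test and 90 by DESeq2, still with 0 of the 10 PCP genes. The replicate block with the quasi-likelihood test called 0 genes and changed no other call. It moved *Celsr1* from 1.66 to 0.62, *Prickle1* from 0.88 to 0.59 and *Prickle2* from 0.42 to 0.24. For the 5 ratios, pairing cannot move the mean difference (0.33 for *Vangl2* to *Vangl1*, -0.35 for *Prickle2* to *Prickle1*). Every library has a partner, so paired and unpaired mean differences are equal by arithmetic, and their equality is no check.

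Several directions turned between the alternatives. *Fzd6* came to 0.081 with library totals, 0.058 with the filter on CPM, and 0.013 with DESeq2. Scaling by *Rn7sk* counts moved the median of all genes to -0.26, and *Vangl2* came to -0.023, *Celsr3* to -0.14 and *Fzd3* to -0.17, all above that median. With the *Rn7sk* log2 CPM ratio, the replicate block and the likelihood ratio test, these 3 genes were at 0.24, 0.27 and 0.095. Without both libraries numbered 3, *Celsr1* came to -0.53, *Fzd3* to -0.10 and *Prickle2* to -0.10, while *Celsr3* (0.18) and *Prickle1* (0.17) stayed above 0, and the ratio of *Celsr2* to *Celsr1* to 0.43.

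Leaving out 1 library at a time gave 0 calls throughout, with log2 fold changes of -0.37 to 2.13 for *Celsr1*, -0.36 to -0.11 for *Celsr2*, -0.34 to 0.84 for *Celsr3*, -0.071 to 0.20 for *Fzd3*, -0.53 to 0.30 for *Fzd6*, -0.045 to 1.26 for *Prickle1*, -0.35 to 0.71 for *Prickle2*, -0.17 to 0.0069 for *Scrib*, -0.27 to 0.12 for *Vangl1* and 0.09 to 0.39 for *Vangl2*. Their signs turned without KO NPC 3 for *Celsr1*, *Celsr3*, *Fzd3*, *Prickle1*, *Prickle2* and *Scrib*. Other libraries turned signs too: *Vangl1* came to 0.12 without WT NPC 1 and *Scrib* to 0.0069 without WT NPC 2. *Fzd6* came to 0.30 without KO NPC 1, 0.10 without KO NPC 2 and 0.30 without WT NPC 3. *Prickle1* had an unadjusted p under 0.05 without KO NPC 1. *Celsr1* had an unadjusted p under 0.05 in both directions. Its log2 fold change was 1.56 without a filter and -0.53 without both libraries numbered 3 (edgeR quasi-likelihood, adjusted p = 0.947 and 0.9995). The unnamed *Prickle1* locus, fitted after seeing the data, was at 1.00 to 1.58, and at 1.34 with the replicate block. Since its KO libraries were all above its WT libraries, leaving out 1 library could hardly turn its sign. Ratio differences ran from -1.74 to 0.22 (*Celsr2* to *Celsr1*), -0.15 to 1.12 (*Celsr3* to *Celsr2*), -0.44 to 0.20 (*Fzd6* to *Fzd3*), -0.54 to -0.22 (*Prickle2* to *Prickle1*) and 0.08 to 0.62 (*Vangl2* to *Vangl1*). *Fzd6* to *Fzd3* turned to 0.20 without KO NPC 1 and to 0.14 without WT NPC 3, and *Celsr3* to *Celsr2* to -0.15 without KO NPC 3. The cause of these turns was not tested. *Celsr3* has no value for loci that name a single gene, since its locus also names *Gm23156*. Depth was lowest for *Fzd6*, with 56 to 124 counts, and its part in the SE of 0.53 was not tested.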
